A study of Homo sapiens with 9 samples.

Results

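The heat shock chaperones described here were HSPA1A, HSPA1B, HSPA8, HSPH1, HSP90AA1, HSP90AB1, DNAJB1, DNAJA1, HSPD1 and HSPE1. They were chosen by name, and each symbol was matched to an Ensembl identifier in the deposited expression table, with the identifier of the highest mean level kept where a symbol had several. All 10 genes were found among the 54562 identifiers of the table, and 8 of them reached a mean of at least 1 FPKM (fragments per kilobase, a level corrected for gene length and for the size of the library), the level required for testing. HSPA1A and HSPA1B did not reach it. HEK293, a human embryonic kidney cell line, was transiently transfected with Lipofectamine 2000 and an empty vector (EV), or with a plasmid that carries the ADARB1 cDNA without its *Alu* exon (Short) or with it (Long). ADARB1 encodes an RNA editing enzyme that converts adenosine to inosine, and both plasmids make it far above the endogenous level of the line. PolyA RNA was collected 48 hours later in 3 passages of the line, which gave 3 libraries per group and 9 in total. The labels number the replicates without naming passages, and the replicate number is taken here as the passage. All cells went through transfection, the EV cells included, and no cells without transfection or with a heat shock were among the libraries.

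Heat shock proteins are molecular chaperones: they bind unfolded or partly folded proteins, hold them and pass them on for folding or destruction. HSP70 proteins work in cycles of ATP hydrolysis that J-domain proteins start and nucleotide exchange factors end, HSP90 finishes the folding of kinases and hormone receptors, and HSP60 with its HSP10 lid folds proteins inside mitochondria. When unfolded proteins accumulate, heat shock factor 1 (HSF1) is released from chaperones, binds inverted repeats of the letters GAA in promoters and raises the transcription of many of these genes, the inducible HSP70 genes HSPA1A, HSPA1B and HSPA6 above all, whereas HSPA8 and HSP90AB1 are made in large amounts by unstressed cells too.

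ADARB1 was used to check the labels of EV against plasmid libraries, and its level over the whole gene does not check Short against Long. It was 7.66, 7.999 and 8.61 FPKM in EV passages 1 to 3, 1889, 4145 and 2735 FPKM with Short, and 1695, 3449 and 2080 FPKM with Long. Every library with a plasmid for ADARB1 was far above every EV library, and with either plasmid passage 2 had the highest level. Of 7 marker genes of HEK293 cells, 6 were matched in the table and all 6 had a mean of at least 1 FPKM. KRT8 was the most abundant, with a mean of 191 FPKM, and the 6 genes summed to between 470 and 554 FPKM per library. Some of these markers moved between passages and groups, LIN28B most of all, and their values are given with the passages. Of 9 markers of blood, liver, fibroblast and pancreatic cells, 1 reached that level (COL1A1, 11.2 ± 1.32 FPKM, SD, n = 9), and HBB and INS were listed at 0 in all libraries. Relative depth was estimated from the steps that single fragments leave among the lowest FPKM values. The estimate is rough, since outside EV passage 1 only 22.5% to 46.1% of the low genes used lay on the step of their library. Relative to EV passage 1 the depth was 0.997 to 1.06 in the other libraries of passages 1 and 2, and 1.16, 1.20 and 1.11 in EV, Short and Long of passage 3. The number of fragments is unknown, so no counting intervals are given.

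In FPKM, which is a level per gene length, HSP90AB1 was the most abundant of the chaperones, with 555 ± 42.7 FPKM (SD, n = 9). HSPA8 had 430 ± 59.6 FPKM, HSP90AA1 426 ± 155 FPKM and HSPD1 388 ± 73.5 FPKM (SD, n = 9), and these 3 did not differ beyond the spread between libraries. HSPE1 followed with 177 ± 17.0 FPKM, DNAJA1 with 125 ± 30.4 FPKM, DNAJB1 with 74.0 ± 4.94 FPKM and HSPH1 with 41.1 ± 17.7 FPKM (SD, n = 9). By its EV mean, HSP90AB1 ranked 139 and HSPH1 ranked 2009 among the 54562 identifiers. The spread between libraries was unequal as well. The highest library was 2.87 times the lowest for HSPH1 and 2.84 times for HSP90AA1, but 1.28 times for HSP90AB1, 1.29 times for HSPE1 and 1.25 times for DNAJB1.

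**Figure D1:**
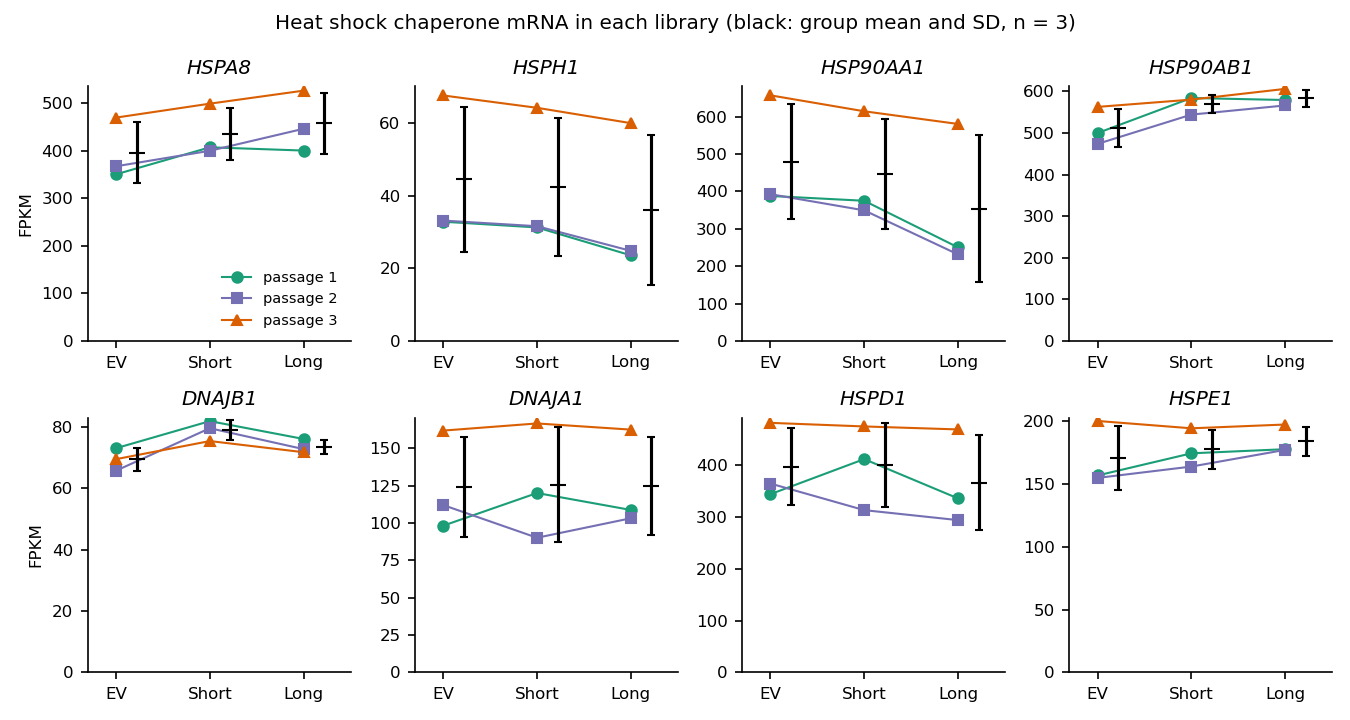
FPKM (vertical axes, from 0) of the 8 measured chaperone genes in the EV, Short and Long libraries. Points of one passage are joined, and the black bars show the mean and SD of 3 libraries. In 6 of the 8 panels all libraries of passage 3 lie above all others, and HSP90AB1 and DNAJB1 are the exceptions.

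The promoters were searched for the heat shock element, since members of the group moved together between passages, HSPH1 most of all before correction for GC content. The motif searched was GAANNTTCNNGAA, which reads TTCNNGAANNTTC on the other strand, in windows from 250 bases before to 50 bases after each RefSeq start site of GRCh38.p14. It was present in 172 of 35116 promoter windows (0.490%) and in 166 of 27305 genes. Of the 10 chaperone genes, 5 had it in at least 1 of their windows (5 of 16 windows): HSPA8, HSP90AA1, HSP90AB1, DNAJA1 and HSPD1. Of 57 other chaperone network genes with a window, 4 had it, namely CHORDC1, DNAJB6, HSPA6 and SERPINH1. The sites below are those of all 9 genes with a match, with the match nearest the start site where a gene has another, and are shown so that they can be set beside the values of these genes. They are read 5′ to 3′ along the strand of the gene, with the matched letters in capitals.
HSPA8: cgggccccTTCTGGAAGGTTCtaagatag
HSP90AA1: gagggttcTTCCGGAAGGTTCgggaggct
HSP90AB1: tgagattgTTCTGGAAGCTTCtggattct
DNAJA1: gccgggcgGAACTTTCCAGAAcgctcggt
HSPD1: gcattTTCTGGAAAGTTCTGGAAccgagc
HSPA6: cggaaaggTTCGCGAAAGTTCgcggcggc
CHORDC1: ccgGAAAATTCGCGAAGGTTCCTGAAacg
DNAJB6: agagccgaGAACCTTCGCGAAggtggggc
SERPINH1: ttccaactTTCCAGAAGTTTCtcgggacg
The HSPA8 stretch lies at chr11:123062171-123062199 on the minus strand and its match starts 55 bases before the start site. That of HSP90AA1 lies at chr14:102087112-102087140 on the minus strand, 88 bases before the start site, and that of HSP90AB1 at chr6:44247823-44247851 on the plus strand, 112 bases before it. HSPA8 and HSP90AB1 each had another match farther upstream. The DNAJA1 match lies just after the start site, at chr9:33025268-33025296 on the plus strand. The HSPD1 stretch, at chr2:197500062-197500090 on the minus strand, holds 2 overlapping matches and that of CHORDC1, at chr11:90223084-90223112 on the minus strand, holds 3. The HSPA6 stretch lies at chr1:161524458-161524486 on the plus strand, 74 bases before the start site. That of DNAJB6 lies at chr7:157336865-157336893 and that of SERPINH1 at chr11:75562169-75562197, both on the plus strand, and neither gene passed in a group comparison or in the test between passages (limma F-test adjusted p = 0.180 and 0.0509). With the GC correction DNAJB6 did pass between passages (limma F-test adjusted p = 0.0332), and SERPINH1 did not (limma F-test adjusted p = 0.444). A match describes the letters only, and the windows of HSPH1, DNAJB1, HSPE1, HSPA1A and HSPA1B held none of exactly these letters. The HSPE1 window begins at chr2:197500129 on the plus strand. The HSPD1 stretch thus also lies upstream of the HSPE1 start site, just outside that window.

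HSPA1A and HSPA1B encode the major inducible HSP70 and are near-identical copies beside each other on chromosome 6 (GRCh37, 31783320 to 31785723 and 31795515 to 31798031, plus strand). HSPA1A was listed between 0 and 0.0579 FPKM and HSPA1B between 0.0403 and 0.165 FPKM in the 9 libraries. These values do not show whether the genes were expressed, because the genes around them were listed at or near 0 as well. Of 155 protein-coding genes within 2 Mb of HSPA1A, 133 (85.8%) had a mean under 1 FPKM and 82 (52.9%) were at 0 in all libraries. On the rest of chromosome 6 this held for 34.8% and 8.58% of 816 genes. RPS18, a ribosomal protein gene that every cell uses, and CSNK2B, a subunit of casein kinase, were listed at 0 in all 9 libraries, and TUBB, a beta tubulin, had a mean of 0.0885 FPKM. The cause was not tested. Of the identifiers in the table, 6984 had no match in the annotation, 403 of these had a mean of at least 1 FPKM, and none was given a gene name. HSPA1A and HSPA1B are therefore left out of the comparisons.

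**Figure D2:**
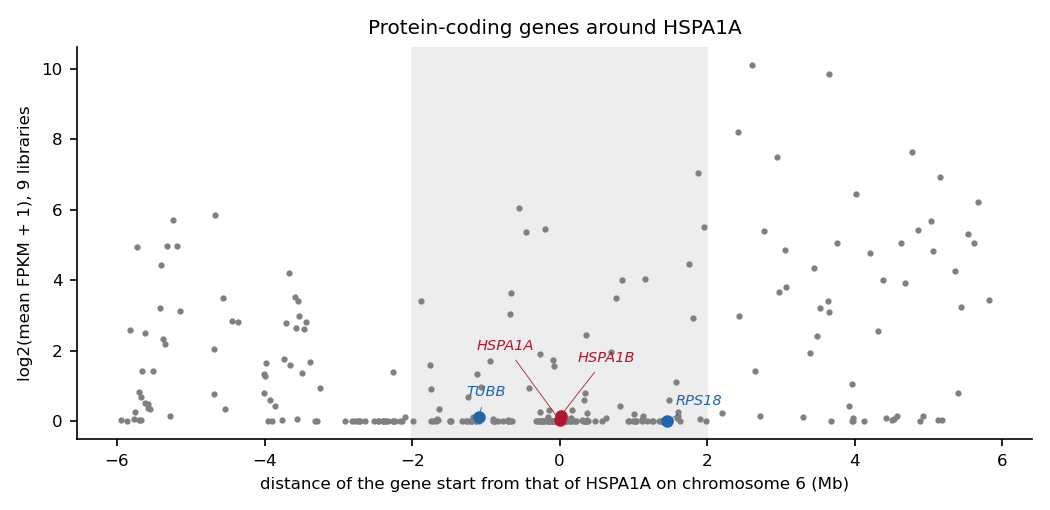
Mean level of protein-coding genes on chromosome 6, as log2(mean FPKM + 1) over 9 libraries (vertical axis), against the distance of the gene start from that of HSPA1A in Mb (horizontal axis). Each point is a gene, and within the shaded 2 Mb on either side 133 of 155 genes have a mean under 1 FPKM, HSPA1A, HSPA1B, RPS18 and TUBB among them.

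The first question was whether making either ADARB1 isoform changed the chaperone mRNAs. The 3 group comparisons were made with limma on log2(FPKM + 1) over the 13801 genes tested, within passages, and a gene passed with a Benjamini-Hochberg adjusted p under 0.05. On this scale the change of weakly expressed genes comes out too small. The Short and Long comparisons share the EV libraries. P-values of the group comparisons rest on 3 passages of 1 cell line. In bulk RNA, fewer cells with a response and less mRNA per cell cannot be told apart.

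With the Long isoform, HSP90AA1 and HSPH1 fell while HSPA8 and HSP90AB1 rose. These were 4 of the 8 genes tested, 2 in each direction, against 8.32% of all genes tested (1.99% higher and 6.33% lower). With values rescaled to the same sum per library 0 were higher and 2 lower, against 0.413% and 8.86% of all genes tested in that fit. Without a trend in the fit the counts were the same, against 0.326% and 4.35%, and with median ratio scaling 1 was higher and 2 lower, against 0.979% and 8.01%. With the GC correction 1 was higher (HSPE1) and 1 lower (HSP90AA1), against 0.645% and 1.72% of all genes tested. HSPH1, HSPA8 and HSP90AB1 did not pass in that fit. As reported, DNAJB1, DNAJA1, HSPD1 and HSPE1 did not pass. The median log2 fold change of the 8 genes was 0.047, and that of all genes tested was 0.039. Without passage 1 or without passage 2 none of the 8 genes passed, and without passage 3 the 4 genes did. Of all genes tested, 0.00725% were higher and 0.00725% lower without passage 1. These shares were 0.0870% and 0.638% without passage 2, and 0.630% and 6.84% without passage 3. None of the 8 passed in the fit without pairing by passage or in that without a filter on low values. Over all genes the shares there were 0.00725% higher and 0.00725% lower without pairing, and 0.00366% and 0% without the filter.

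HSP90AA1 (ENSG00000080824, GRCh37 chromosome 14, 102547079 to 102606036, minus strand) encodes the stress-inducible cytosolic HSP90 alpha. Its level was 388, 392 and 657 FPKM in EV passages 1 to 3, 375, 349 and 614 FPKM with Short, and 250, 231 and 580 FPKM with Long. In each passage the Long library was the lowest, but the Long library of passage 3 was above the EV libraries of passages 1 and 2, so the groups overlap. The log2 fold change of Long against EV was -0.52 (standard error 0.096, limma adjusted p = 0.0125), and the level fell by 30.4%. Within passages the difference was -0.63, -0.76 and -0.18 on the log2(FPKM + 1) scale, and was thus smallest in passage 3. Against Short the log2 fold change was -0.42 (95% interval -0.63 to -0.21, limma adjusted p = 0.547), lower in 3 of 3 passages. Without passage 3 it was -0.59 and passed (limma adjusted p = 0.00661).

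HSPH1 (ENSG00000120694, GRCh37 chromosome 13, 31709110 to 31736525, minus strand) encodes HSP110, which acts as a nucleotide exchange factor of HSP70. It had 32.9, 33.2 and 67.7 FPKM in EV passages 1 to 3, 31.3, 31.7 and 64.3 FPKM with Short, and 23.6, 24.8 and 60.1 FPKM with Long. As for HSP90AA1, the Long library was the lowest of each passage and passage 3 the highest of each group. The log2 fold change of Long against EV was -0.35 (standard error 0.068, limma adjusted p = 0.0156), and the level fell by 21.3%. After correction for GC content it was -0.22 and no longer passed (limma adjusted p = 0.122). Across the 9 libraries HSPH1 and HSP90AA1 had a Pearson correlation of 0.97, given as a description because libraries share passages and groups.

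HSPA8 (ENSG00000109971, GRCh37 chromosome 11, 122928197 to 122933938, minus strand) encodes HSC70, the constitutive HSP70 of the cytosol. Its level was 350, 367 and 470 FPKM in EV passages 1 to 3, 407, 400 and 499 FPKM with Short, and 400, 446 and 526 FPKM with Long. Each plasmid library was above the EV library of its passage, and the groups overlap across passages. The log2 fold change of Long against EV was 0.21 (standard error 0.045, limma adjusted p = 0.0199), an increase of 15.8%. For Short against EV it was 0.14 (standard error 0.045, limma adjusted p = 0.125), higher in 3 of 3 passages. With values rescaled to the same sum per library, the Long value was 0.14 (limma adjusted p = 0.0523). The GC correction gave 0.15, which did not pass either (limma adjusted p = 0.142).

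HSP90AB1 (ENSG00000096384, GRCh37 chromosome 6, 44213903 to 44221625, plus strand) encodes the constitutive cytosolic HSP90 beta. It had 500, 474 and 563 FPKM in EV passages 1 to 3, 584, 544 and 580 FPKM with Short, and 580, 566 and 606 FPKM with Long. All Long libraries were above all EV libraries, a pattern found in 10.5% of the genes tested. The log2 fold change of Long against EV was 0.19 (standard error 0.045, limma adjusted p = 0.0274) and that of Short against EV 0.16 (standard error 0.045, limma adjusted p = 0.112). After correction for GC content the Long value was 0.10 and no longer passed (limma adjusted p = 0.272). Its rise with Long passed in 3 of 12 alternative settings, whereas the fall of HSP90AA1 passed in 8 of 12. The difference between the paralogs was not tested. HSP90AA1 had fewer FPKM than HSP90AB1 in all libraries of passages 1 and 2 and in Long of passage 3, and more in EV and Short of passage 3.

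**Figure D3:**
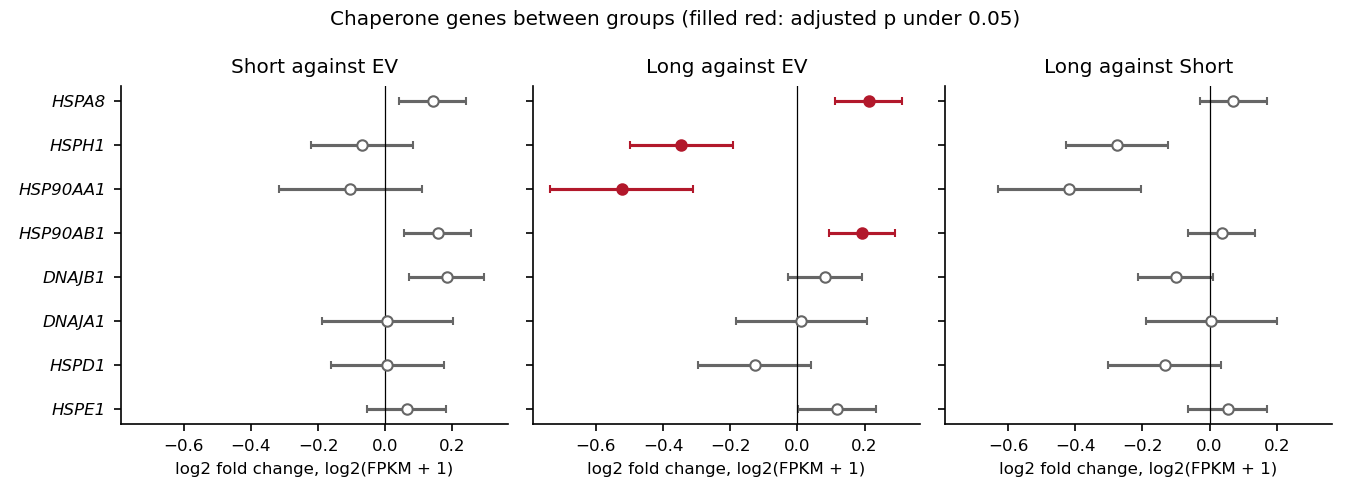
Differences in log2(FPKM + 1) (horizontal axis) of the 8 genes in the 3 group comparisons, with 95% intervals from limma. Filled red points have an adjusted p under 0.05. They occur in Long against EV alone, with HSP90AA1 at -0.52, HSPH1 at -0.35, HSPA8 at 0.21 and HSP90AB1 at 0.19.

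The J-domain proteins hand unfolded proteins to HSP70. DNAJB1 (ENSG00000132002, GRCh37 chromosome 19, 14625581 to 14671203, minus strand), the main HSP40 that stress induces, had 73.1, 65.8 and 69.5 FPKM in EV passages 1 to 3, 81.9, 79.6 and 75.4 FPKM with Short, and 76.1, 72.8 and 71.8 FPKM with Long. All Short libraries were above all EV libraries, a pattern found in 10.9% of the genes tested, and the log2 fold change was 0.18 (95% interval 0.072 to 0.29, limma adjusted p = 0.110), or 0.090 after correction for GC content (limma adjusted p = 0.512). DNAJA1 (ENSG00000086061, GRCh37 chromosome 9, 33025271 to 33039905, plus strand) had 98.3, 112 and 162 FPKM in EV, 120, 90.2 and 167 FPKM with Short, and 109, 103 and 163 FPKM with Long. For DNAJA1 neither plasmid moved the level one way in all passages. Against EV, its log2 fold change was 0.011 with Long (95% interval -0.18 to 0.21) and 0.0063 with Short (95% interval -0.19 to 0.20), and the sign of both depended on the scaling.

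HSPD1 (ENSG00000144381, minus strand) and HSPE1 (ENSG00000115541, plus strand) encode the mitochondrial HSP60 and its HSP10 lid. They lie on opposite strands of GRCh37 chromosome 2 (198351308 to 198381461 and 198364864 to 198368173), where the annotated span of HSPE1 falls inside that of HSPD1, and in RefSeq on GRCh38.p14 the start site of HSPE1 is 105 and 539 bases from those of HSPD1. HSPD1 had 345, 365 and 482 FPKM in EV passages 1 to 3, 412, 314 and 475 FPKM with Short, and 336, 294 and 470 FPKM with Long. HSPE1 had 157, 155 and 200 FPKM in EV, 174, 164 and 194 FPKM with Short, and 178, 177 and 197 FPKM with Long. With Long, HSPD1 was lower than EV in 3 of 3 passages (log2 fold change -0.13, 95% interval -0.30 to 0.041, limma adjusted p = 0.334), and HSPE1 was higher in 2 of 3 (0.12, 95% interval 0.00048 to 0.23, limma adjusted p = 0.203). The HSPD1 value was -0.036 without passage 2. With 1 passage left out the HSPE1 value was 0.080 to 0.19. Neither passed the test, and the difference between the genes was not tested. After the values were corrected for GC content by a loess curve per library, HSPE1 was higher with Long by 0.36 on the log2 scale and passed (limma adjusted p = 0.0356), and HSPD1 was at 0.041 (limma adjusted p = 0.829). The level of HSPE1 is less certain than that of the other genes with pseudogenes named for them. For HSPE1, 22 such pseudogenes summed to 13.6 FPKM, or 7.67% of its own mean. For the other genes with such pseudogenes the share was at most 0.824%. Pseudogenes were counted by the full symbol of the gene, which misses copies of the HSP90 genes with another symbol. HSP90AA2P, a pseudogene copy of HSP90AA1, had 0.450 to 2.71 FPKM.

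With the Short isoform, 0 of the 8 genes passed against EV in limma, against 0.0362% of all genes tested. At an unadjusted p under 0.05 there were 3, against 22.0% of all genes tested, namely DNAJB1, HSP90AB1 and HSPA8, each higher in 3 of 3 passages. Between Long and Short, 0 of the 8 passed, against 0.00725% of all genes tested. At an unadjusted p under 0.05 there were 2, against 7.54% of all genes tested, namely HSP90AA1 and HSPH1, both lower with Long in 3 of 3 passages. The difference of HSPH1 was -0.28 on the log2 scale (95% interval -0.43 to -0.12, limma adjusted p = 0.547). That 4 genes passed with Long and none with Short does not show that the isoforms differed, since the direct comparison passed for none of the 8.

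HSPA6, an HSP70 that is known for being silent in unstressed cells, lies under the level required for testing and was singled out after its values were seen. It had 0.120, 0.155 and 0.155 FPKM in EV passages 1 to 3, 0.523, 1.32 and 1.19 FPKM with Short, and 0.459, 0.827 and 0.467 FPKM with Long. All libraries with an ADARB1 plasmid were above all EV libraries, a pattern found in 3.2% of the genes fitted without a filter on low values. At these levels the number of fragments is small and unknown, and changes on the log2(FPKM + 1) scale come out much smaller than the ratios of the FPKM values. In the fit without a filter on low values the log2 fold change was 0.79 for Short (standard error 0.12, limma adjusted p = 0.223) and 0.46 for Long (standard error 0.12, limma adjusted p = 0.150), and neither passed. HSPA7, a close copy of HSPA6, was between 0 and 0.0681 FPKM.

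The second question was how the chaperones varied between passages. By the limma F-test 6 of the 8 genes differed between passages, against 36.4% of all genes tested, and for these 6 the largest difference between passages was larger than any between groups in this fit. After correction for GC content this no longer held for HSPE1, and HSPD1 was past the threshold against passage 2 but not against passage 1. The 6 genes were HSPH1, HSP90AA1, DNAJA1, HSPA8, HSPD1 and HSPE1. Each of the 6 was higher in passage 3 than in passage 1 and than in passage 2, against 12.3% of all genes tested that were higher in both comparisons. Pairs of passages were compared after the values had been seen. In all tests between passages, the EV, Short and Long libraries of a passage stand in as its replicates. The p-values and standard errors of these tests measure the spread among those libraries, not between independent cultures. Anything else that the libraries of a passage share cannot be told apart from passage. Of the others, HSP90AB1 passed against passage 2 (log2 difference 0.15, limma adjusted p = 0.0305; 17.2% of all genes tested were higher in this comparison) and not against passage 1 (0.075), where it did pass after rescaling to the same sum (0.17), with median ratio scaling (0.14) and with the GC correction (0.21). DNAJB1 passed in no pair of passages as reported, and with the GC correction it did against passage 2 (0.19, limma adjusted p = 0.0156). The HSP90AB1 call against passage 2 ended without a trend or without a filter on low values.

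HSPH1 differed most in the values without the GC correction, after which HSP90AA1 was above it. The mean of HSPH1 over the 3 groups was 29.3 ± 4.96 FPKM in passage 1, 29.9 ± 4.44 FPKM in passage 2 and 64.04 ± 3.82 FPKM in passage 3 (SD, n = 3). The log2 difference of passage 3 was 1.12 against passage 1 (standard error 0.068, limma adjusted p = 3.40e-05) and 1.08 against passage 2 (standard error 0.068, limma adjusted p = 0.000104). HSP90AA1 came next, with 338 ± 75.9, 324 ± 83.3 and 617 ± 38.4 FPKM in passages 1 to 3 (SD, n = 3), and a log2 difference of 0.89 against passage 1 (standard error 0.096, limma adjusted p = 0.000272). For both genes every library of passage 3 was above every other library, a pattern found in 13.1% of the genes tested. Of all genes tested, 99.8% had a smaller difference between passage 3 and the mean of the others than HSPH1, and 99.3% a smaller one than HSP90AA1.

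DNAJA1 was higher in passage 3 by 0.59 against passage 1 and by 0.69 against passage 2 on the log2(FPKM + 1) scale (standard error 0.088). HSPD1 was higher by 0.39 and 0.56 (standard error 0.076), HSPA8 by 0.37 and 0.30 (standard error 0.045) and HSPE1 by 0.22 and 0.26 (standard error 0.053). With the GC correction HSPD1 was at 0.16 against passage 1 and no longer passed there (limma adjusted p = 0.0772). In these 4 genes too, every library of passage 3 was above all others. Between passages 1 and 2 no chaperone passed (limma, 0 of 8), against 0.275% of all genes tested, and none had an unadjusted p under 0.05, against 14.5%.

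**Figure D4:**
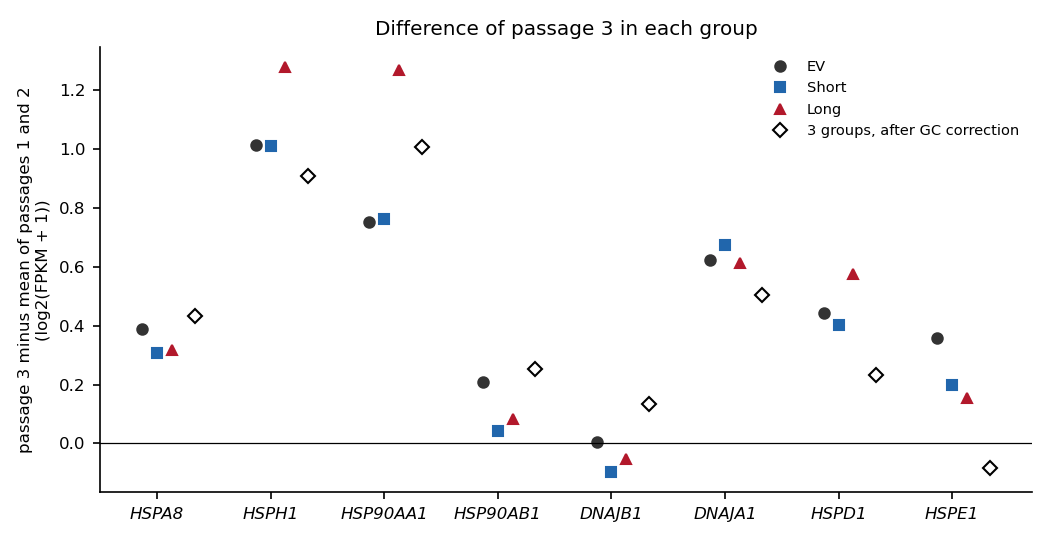
Passage 3 minus the mean of passages 1 and 2 on the log2(FPKM + 1) scale (vertical axis) for each gene in EV, Short and Long, each point from 3 libraries. Open diamonds give the value over the 3 groups after correction for GC content. HSPH1 is at 1.01 to 1.28 and HSP90AA1 at 0.75 to 1.27, DNAJB1 lies between -0.097 and 0.0039, and HSPE1 falls below 0 after the correction.

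In the EV cells passage 3 minus the mean of the other passages was 1.01 for HSPH1, 0.75 for HSP90AA1, 0.62 for DNAJA1, 0.44 for HSPD1, 0.39 for HSPA8 and 0.36 for HSPE1 on the log2(FPKM + 1) scale. In the Long cells it was 1.28 for HSPH1, 1.27 for HSP90AA1, 0.61 for DNAJA1, 0.58 for HSPD1, 0.32 for HSPA8 and 0.15 for HSPE1, so that it was larger than in EV for 3 of these genes and smaller for the other 3. In the Short cells HSP90AA1 had 0.76. Whether the passage difference itself differed between groups was not tested, nor was its cause.

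The markers of HEK293 cells moved as well. Between passages 5 of the 6 passed the limma F-test, against the 36.4% of all genes tested, with NEFM and LIN28B higher in passage 3 than in both others and KRT8 and VIM lower. LIN28B, which encodes a binder of let-7 precursors, had 15.2, 15.1 and 25.5 FPKM in EV passages 1 to 3, 13.4, 11.9 and 23.4 FPKM with Short, and 8.85, 7.90 and 23.5 FPKM with Long. As for HSPH1 and HSP90AA1, every library of passage 3 was above all others. In passages 1 to 3 alike the Long library was below the EV library. Its log2 difference was 1.03 for passage 3 against passage 2 (limma adjusted p = 0.000655) and -0.56 for Long against EV (limma adjusted p = 0.0223). KRT8 was higher with Long by 0.20 (limma adjusted p = 0.0499), and the other 4 markers did not pass. After correction for GC content 3 of the 6 passed between passages, LIN28B among them, and 0 passed for Long against EV in limma, where LIN28B alone had an unadjusted p under 0.05 (-0.37, limma adjusted p = 0.106). COL1A1, the marker of another cell type that was measured, was lower in passage 3 than in both others (limma F-test adjusted p = 0.0223), and not past the threshold after the correction (limma F-test adjusted p = 0.314). The part of the markers in the chaperone differences was not tested.

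GC content moved with passage and with group. Over 13398 genes the Spearman correlation with GC content, given as a description across genes, was -0.54 for the passage 3 difference, 0.52 for the Long and 0.62 for the Short difference from EV. The chaperones with the largest passage difference have a GC content below the median of 47.8% of the genes tested. It was 39.6% for HSPH1, 45.2% for HSP90AA1, 40.8% for DNAJA1, 38.6% for HSPD1, 45.7% for HSPA8 and 36.9% for HSPE1, and DNAJB1 has 56.3%. After the correction for GC content, the difference of passage 3 from the mean of the others was 0.91 for HSPH1, 1.01 for HSP90AA1, 0.51 for DNAJA1, 0.43 for HSPA8, 0.25 for HSP90AB1, 0.23 for HSPD1 and 0.13 for DNAJB1. The F-test then passed for these 7 genes, against 29.0% of all genes tested, and HSPE1, at -0.084, no longer did (limma adjusted p = 0.521). For Long against EV, HSP90AA1 passed after the correction (-0.58, limma adjusted p = 0.0304), while HSPH1 (-0.22, limma adjusted p = 0.122), HSPA8 (0.15, limma adjusted p = 0.142) and HSP90AB1 (0.10, limma adjusted p = 0.272) did not. In all, 2 of the 8 passed in that fit, against 2.37% of all genes tested. The rough estimate of depth was highest in passage 3 of each group, and its part in the passage difference was not tested.

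**Figure D5:**
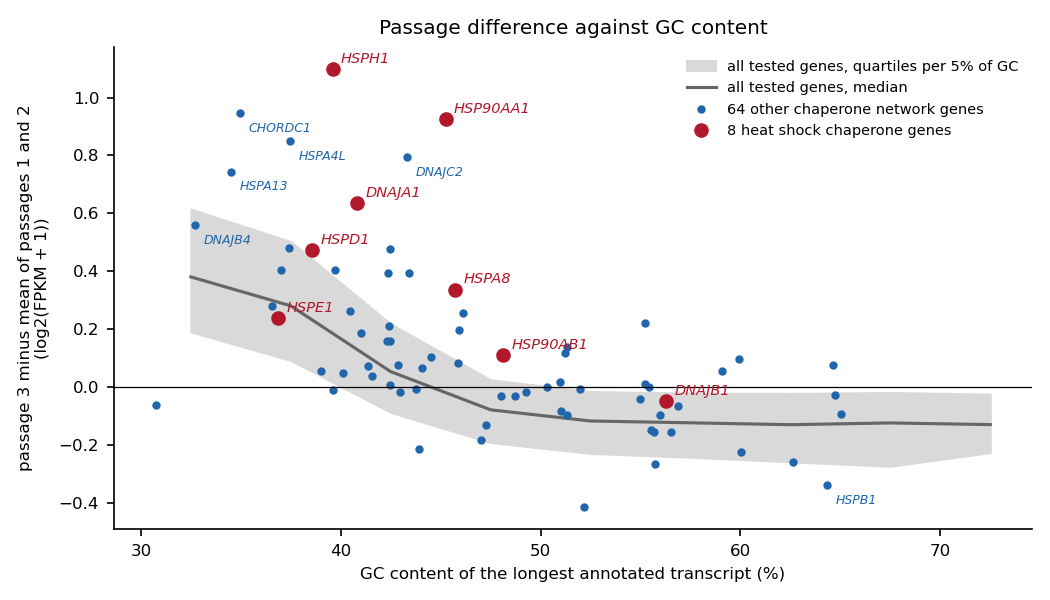
Passage 3 minus the mean of passages 1 and 2 on the log2(FPKM + 1) scale (vertical axis) against the GC content of the longest transcript in percent (horizontal axis). The grey line and band are the median and quartiles of all genes tested per 5% of GC content, red points the 8 chaperones and blue points the 64 other network genes tested. HSPH1 (1.10) and HSP90AA1 (0.93) lie above the band at their GC content, and HSPE1 (0.24) lies within it.

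The rest of the chaperone network was taken from lists of 69 genes, of which 64 were tested. With Long, 10 of the 64 passed against EV, 5 higher and 5 lower, beside 1.99% and 6.33% of all genes tested. The 5 that fell were HSPA13, an HSP70 of microsomes (-0.73, standard error 0.12, limma adjusted p = 0.00916), HSPA4L, an HSP110 (-0.65, limma adjusted p = 0.0120), DNAJC2, a J-domain protein of the ribosome (-0.46, limma adjusted p = 0.00965), DNAJB4 (-0.42, limma adjusted p = 0.0290) and HSP90B1, the HSP90 of the endoplasmic reticulum (-0.30, limma adjusted p = 0.0190), all on the log2 scale and lower in 3 of 3 passages. Those that rose were the HSP90 co-chaperones CDC37, which brings kinases to HSP90 (0.21), and PPP5C, a phosphatase (0.17), the prefoldin subunit PFDN1 (0.27), the mitochondrial disaggregase CLPB (0.22) and the ubiquitin gene UBB (0.17). After the GC correction 4 of the 64 passed, beside 2.37% of all genes tested in that fit, and of these 10 genes only HSPA13 (-0.41, limma adjusted p = 0.0415) and DNAJC2 (-0.48, limma adjusted p = 0.0304) were among them. HSPA4L was then at -0.43 (limma adjusted p = 0.0575), HSP90B1 at -0.18 (limma adjusted p = 0.119) and DNAJB4 at -0.079 (limma adjusted p = 0.760), and the 5 that had risen were at 0.062 to 0.18. None of the 64 passed without passage 1, without passage 2, without pairing by passage or without a filter on low values. Few of all genes passed in these fits either. Without passage 1 or without pairing, 0.00725% were higher and 0.00725% lower. The shares were 0.0870% and 0.638% without passage 2, and 0.00366% and 0% without the filter. With values rescaled to the same sum per library 1 of the 64 was higher and 9 were lower, beside 0.413% and 8.86% of all genes tested in that fit. Short against EV and Long against Short called 0 of the 64 in limma, with 26 and 10 at an unadjusted p under 0.05, beside 22.0% and 7.54% of all genes tested. The gene with the largest difference was HSPA13 for Short against EV (-0.35, limma adjusted p = 0.131) and DNAJB4 for Long against Short (-0.49, limma adjusted p = 0.547).

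Between passages 27 of the 64 differed by the F-test (42.2%, beside 36.4% of all genes tested), and 13 were higher and 5 lower in passage 3 than in both others, beside 12.3% and 12.5% of all genes tested. With rescaling to the same sum, and with median ratio scaling, 21 were higher and 4 lower, beside 15.9% and 8.54% of all genes tested in the first and 15.3% and 8.93% in the second. CHORDC1, an HSP90 co-chaperone, differed most before the GC correction, and DNAJC2 after it. It had 31.2, 31.2 and 52.1 FPKM in EV passages 1 to 3, 27.8, 29.5 and 54.9 FPKM with Short, and 23.4, 21.5 and 53.0 FPKM with Long. Its range over the passages was 0.95 on the log2 scale (limma F-test adjusted p = 0.000304), followed by HSPA4L (0.87), DNAJC2 (0.82), HSPA13 (0.76) and DNAJB4 (0.64). After the GC correction the difference of passage 3 from the mean of the others went from 0.95 to 0.58 for CHORDC1, from 0.85 to 0.55 for HSPA4L, from 0.80 to 0.81 for DNAJC2 and from 0.74 to 0.37 for HSPA13, all still past the F-test, and from 0.56 to 0.20 for DNAJB4, which no longer passed (limma F-test adjusted p = 0.0903). The counts were then 18 higher and 2 lower than in both others, beside 11.0% and 5.46% of all genes tested in the corrected fit. The counts by list that follow are those without the correction. By list, 3 of 5 other HSP70 and HSP110 genes, 2 of 7 other J-domain proteins, 3 of 11 HSP90 co-chaperones, 3 of 13 TRiC and prefoldin subunits, 1 of 7 HSP70 regulators and 1 of 3 chaperones of the endoplasmic reticulum were higher in passage 3 than in both others. Of 3 heat shock factors and their regulators, 3 other HSF1 targets and 2 small heat shock proteins, none was. Of 10 mitochondrial chaperones and proteases none was higher and LONP1 was lower. The small heat shock protein HSPB1 was lower in passage 3, by 0.39 against passage 1 (limma adjusted p = 0.000578), with 113, 99.7 and 80.6 FPKM in EV, 129, 121 and 96.2 FPKM with Short, and 112, 109 and 92.7 FPKM with Long. The co-chaperone UNC45A and the prefoldin subunit PFDN5 were also lower in passage 3 than in both others. After the GC correction the difference of passage 3 from the mean of the others went from -0.34 to -0.16 for HSPB1, which passed the F-test (limma adjusted p = 0.00928), and UNC45A (limma adjusted p = 0.409), PFDN5 (limma adjusted p = 0.955) and LONP1 (limma adjusted p = 0.0664) did not. These 4 were among the 5 that were lower.

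HSF1 itself had 31.6 ± 2.29 FPKM in EV, 35.4 ± 1.90 FPKM with Short and 36.2 ± 2.12 FPKM with Long (SD, n = 3) and passed in no comparison (Long against EV 0.19, limma adjusted p = 0.145; between passages, limma F-test adjusted p = 0.849). HSF2 differed between passages (limma F-test adjusted p = 0.0199) and was higher in passage 3 than in passage 2 by 0.35 on the log2 scale, a call that ended with the GC correction (limma F-test adjusted p = 0.122). BAG3, an exchange factor of HSP70 that stress induces, had 18.7 ± 1.69, 21.0 ± 1.65 and 20.2 ± 0.99 FPKM in EV, Short and Long (SD, n = 3) and passed in no comparison. HSPA5, the HSP70 of the endoplasmic reticulum, passed in none either (between passages, limma F-test adjusted p = 0.0624). HSPA9, the mitochondrial HSP70, differed between passages (limma F-test adjusted p = 0.0429) and was higher in passage 3 than in passage 2 by 0.24, with an adjusted p of 0.0519 from the limma F-test after the GC correction.

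Across the 9 libraries the tested genes outside the lists with the profile most like the mean standardised profile of the 8 chaperones were EAPP (Pearson r = 0.98), GTF3C6 (0.98), MRS2 (0.97), CDK12 (0.96) and ZFR (0.96). Each chaperone was set against the mean of the other 7, since a gene is part of its own mean, and the correlation was 0.89 for HSPE1 and DNAJA1, 0.84 for HSPA8, 0.83 for HSPD1, 0.80 for HSPH1, 0.69 for HSP90AA1, 0.63 for HSP90AB1 and -0.073 for DNAJB1. These values and those of the outside genes are against different means. These are descriptions over libraries that share passages and groups.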

How the data were processed

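Per the labels and the study's methods, stranded libraries from polyA RNA were mapped with TopHat (version 1.4.1), first to the transcripts of Ensembl and second to the hg19 genome, and Cufflinks is named in the submitters' processing notes. The authors deposited 1 table of FPKM per Ensembl identifier and library, without counts and without pooling. FPKM shares a library's total among its genes, so a few abundant transcripts lower all others. Symbols, positions, transcript length and GC content came from GENCODE on GRCh37, which matched 87.2% of the identifiers. Promoter sequences came from RefSeq on GRCh38.p14.

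The test was limma's (version 3.58.1, in R version 4.3.3, lmFit and eBayes with trend) on log2(FPKM + 1). It used the 13801 identifiers whose mean reached 1 FPKM, with terms for group and for replicate number (the block). Benjamini-Hochberg adjustment ran over all genes tested. The fit was tested on simulated data. The methods repeated the transfections in different passages, and the replicate number of the labels was taken as the passage. Libraries with the same number deviated together from their group means (mean correlation 0.55 over 9 pairs, lowest 0.33, against -0.26 over 18 pairs of different numbers). Deviations from a group mean sum to 0, so the negative value largely follows from the positive one and is no separate support. GC content was corrected by a loess curve (span 0.3) per library.

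The members, the lists of other genes and the tests were chosen with earlier results of these data known. Besides the 10 members, the text names HSF1, HSF2, HSPA9, HSPA5, BAG3 and HSPB1, for each comparison up to 5 network genes past the threshold with the largest change and the largest change in any case, and the 5 genes most like the members. HSPA6 and the other network genes that passed, the markers and the neighbours of HSPA1A were named after their values were seen. Not every network gene that is counted is reported by name here. Alternatives were a pseudocount of 0.1, rescaling to the same sum (TPM), median ratio scaling, no block, only the groups compared, no trend, no filter, a minimum of 5 FPKM, each replicate left out and the GC correction.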

Additional observations from a re-analysis of the deposited data

How the results depend on the processing

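With 3 passages the 95% intervals set what could be seen, and the number of fragments behind a value is unknown. Short against EV kept 0 members past the threshold in every alternative, and Long against Short did in all but 1, giving 1 (HSP90AA1) without replicate 3, with 0 to 1 over the replicates left out. For Long against EV the number was 4 as reported, 2 with TPM, 2 without a trend, 2 with the GC correction and the block, and 0 with no filter on low values. Leaving out 1 replicate gave 0 to 4, with 0 without replicate 1 or 2. Without the replicate block, that is, without pairing by passage, 0 members passed and 2 of all genes instead of 1148. No other count of members changed with the block. Between passages 6 passed as reported and 0 to 7 with 1 replicate left out, with 0 without replicate 3.

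Counts over all genes for Long against EV were 1148 as reported, 752 with only the groups compared, 646 without a trend, 327 with the GC correction, 1 with no filter, and 2, 100 and 1031 without replicates 1, 2 and 3. For Short against EV they were 5 as reported, 3 without a trend or with a minimum of 5 FPKM, 1 with no filter, 2 without the block, and 2, 6 and 59 without replicates 1, 2 and 3. For Long against Short they were 1 as reported, 3 with only the groups compared, 0 without a trend, with no filter or without the block, and 0, 3 and 9 without replicates 1, 2 and 3. Between passages they were 5028 as reported, 2861 with no filter and 30 without replicate 3. The causes were not tested.

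Signs turned only where the reported value did not pass, except for HSPE1 between passages. With the GC correction the log2 value was 0.032 for HSPH1 (Short against EV), -0.0094 for HSP90AB1 (Long against Short), -0.024 for DNAJB1 and 0.041 for HSPD1 (both Long against EV), 0.071 and 0.19 for DNAJB1 in passage 3 against passages 1 and 2, and -0.093 and -0.075 for HSPE1 in the same comparisons. With TPM it was -0.064 and -0.078 for DNAJA1 (Long and Short against EV), -0.078 for HSPD1 and -0.020 for HSPE1 (Short against EV), 0.031 for DNAJB1 (passage 3 against 2) and 0.015 for HSPE1 (passage 2 against 1). With median ratio scaling it was -0.028 and -0.045 for DNAJA1 (Long and Short against EV), -0.045 for HSPD1 (Short against EV) and 0.039 for DNAJB1 (passage 3 against 2). Leaving out 1 replicate gave -0.056 to 0.076 for DNAJA1 in Long against EV, -0.089 to 0.078 in Long against Short and -0.13 to 0.16 in Short against EV, and -0.12 to 0.12 for HSPD1 in Short against EV.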
